A study of Mus musculus with 24 samples.

Results

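The dermal papilla (DP) rests in telogen, the quiet phase of the hair cycle, and mice were profiled in both the first telogen at P20 and the long second telogen at P60. The question is whether loss of Hdac1 and Hdac2 in the DP changes gene expression in the same way at both ages. Of the 24 RNA-seq libraries of the study, the 12 telogen libraries were used: 3 controls and 3 double mutants (dM1/2) at P20, and 3 controls and 3 dM1/2 at P60. They were chosen by their labelled age. The interaction of genotype and telogen is the difference of dM1/2 from control at P60 minus the same difference at P20, on a log2 scale. A value below 0 means that a gene stood lower in dM1/2, relative to control, at P60 than at P20.

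All 4 groups carry Corin-Cre, which drives recombination in the DP after birth, together with the ROSA26 EYFP reporter, and YFP-positive cells were collected by FACS separately for each mouse. The dM1/2 mice are Hdac1Flox/Flox;Hdac2Flox/Flox. Controls could be Hdac1Flox/+;Hdac2Flox/+, Hdac1Flox/+;Hdac2+/+, Hdac1+/+;Hdac2Flox/+, Hdac1Flox/+;Hdac2Flox/Flox or Hdac1Flox/Flox;Hdac2Flox/+, so some may lack 3 of the 4 functional alleles in the DP, and the labels do not say which genotype a control library has. A model of this kind removes the deacetylases only where and when Corin-Cre is active, and sorted fractions can hold other skin cells. The limma P values below rest on the spread between mice of the same group, 3 per group, pooled over the 4 groups and moderated across genes.

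The DP is a small mesenchymal cluster under the hair follicle whose signals to the epithelium start each new hair cycle. It is known for Wnt, BMP, Hedgehog and FGF signaling, and for genes such as Corin, Sox18, Crabp1 and Lef1 that are low in most other dermal fibroblasts. The surrounding fibroblasts make the collagen matrix of the dermis and are marked by genes such as Thy1, Pdpn, Fbn1 and Col1a1. Hdac1 and Hdac2 are the catalytic subunits of histone deacetylase complexes that remove acetyl groups from histones.

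DP signature genes were mostly higher in dM1/2 than in control at P20 and lower at P60, whereas genes of other fibroblasts were mostly lower at P20 and higher at P60. Of 32 DP signature genes, 28 had an interaction below 0, and all 30 genes of other fibroblasts had an interaction above 0. Over all 14037 genes tested, 6875 were below 0 and 7162 above 0. The lists were chosen with earlier results of these data known, so their counts are descriptions and not a test. Without P60 dM1/2 replicate 1, a library that stood apart, the median difference of other fibroblast genes at P60 was 0.00. No single gene passed an adjusted p of 0.05 for the interaction in limma, the main test, whereas DESeq2 called 169 genes.

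Promoters of genes with an interaction below 0 and above 0 are shown here. They are the RefSeq sequences of build GRCm38.p6 300 bases long around the start of transcription, with GC boxes (GGGCGG on either strand) in capitals. Crabp1 (a retinoic acid binding protein) and Bmp4 (a BMP ligand) had an interaction below 0.
Crabp1, chr9:54764498-54764797, plus strand: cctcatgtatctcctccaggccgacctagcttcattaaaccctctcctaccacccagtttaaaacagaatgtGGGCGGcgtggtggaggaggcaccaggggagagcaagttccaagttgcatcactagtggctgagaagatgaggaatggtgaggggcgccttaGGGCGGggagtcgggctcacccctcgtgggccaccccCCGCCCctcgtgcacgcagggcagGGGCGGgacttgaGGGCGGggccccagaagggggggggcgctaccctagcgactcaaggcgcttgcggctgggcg
Bmp4, chr14:46390620-46390919, minus strand: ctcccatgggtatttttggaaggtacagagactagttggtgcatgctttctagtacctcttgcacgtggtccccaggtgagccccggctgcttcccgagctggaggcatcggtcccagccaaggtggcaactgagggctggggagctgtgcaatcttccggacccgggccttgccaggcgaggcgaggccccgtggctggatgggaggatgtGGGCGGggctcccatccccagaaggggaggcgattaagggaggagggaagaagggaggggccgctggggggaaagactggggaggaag
Pdpn (podoplanin, a membrane glycoprotein of fibroblasts) had an interaction above 0. It is not in the list of other fibroblasts and was named for its low p among interactions above 0.
Pdpn, chr4:143299515-143299814, minus strand: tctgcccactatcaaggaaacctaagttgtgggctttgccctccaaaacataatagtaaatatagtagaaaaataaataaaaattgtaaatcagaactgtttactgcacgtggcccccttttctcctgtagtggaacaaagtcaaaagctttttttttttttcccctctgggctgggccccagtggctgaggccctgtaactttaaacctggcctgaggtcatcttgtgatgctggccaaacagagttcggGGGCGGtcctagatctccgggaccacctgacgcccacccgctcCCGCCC
Promoters were given for 20 of the 32 DP signature genes and 17 of the 30 genes of other fibroblasts. A GC box was found in 60.0% of 25 promoters of the DP signature and in 38.1% of 21 promoters of other fibroblasts, beside 35.7% of all 32851 promoters of this length. CCAAT on either strand was found in 28.0% and 33.3% of them, beside 37.4% of all. TATAAA was found in 4 of the 25 and 4 of the 21 promoters, beside 13.6% of all. The promoters printed above all hold a GC box. That of Tlcd2 (interaction above 0) was also taken but is not printed, and it holds CCAAT and no GC box. These matches are descriptions of letters and not of binding sites.

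Reads on genes ranged from 11635062 to 13369732 per library at P20 and from 8171944 to 9724000 at P60, so that age and depth moved together. Xist was read at 8110 to 26300 normalized reads in the 12 libraries and Ddx3y, a Y-linked gene, had 0 reads, as in female mice. Kdm5d, also Y-linked, had enough reads to be tested, and the source of its reads was not tested. Normalized reads are read counts divided by the size factor of a library. Hdac1 was at 375, 511 and 505 normalized reads in P20 controls and at 216, 370 and 270 in P20 dM1/2. At P60 it was at 506, 360 and 376 in controls and at 371, 347 and 318 in dM1/2. The groups did not overlap at P20 and overlapped at P60, and the interaction of 0.47 ± 0.30 (SE) did not pass (limma, adjusted p = 0.529). Hdac2 was at 828 to 952 in P20 controls, 838 to 928 in P20 dM1/2, 609 to 775 in P60 controls and 699 to 810 in P60 dM1/2, and its groups overlapped at both ages. Gene values sum over all exons and do not resolve the floxed part, so these levels do not check the labels.

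P60 dM1/2 replicate 1 differed from its own replicates by a chi-square per gene of 48 and 61.5, where all other pairs within groups lay between 8.51 and 23.5. It stood apart from the other libraries and had the lowest DP signature level of the 12 libraries and the highest level of other fibroblast, interferon-stimulated and immune genes. Results that rest on it are given with and without it.

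Across 14037 genes tested with limma (log2(normalized reads + 1), two-sided, adjusted by Benjamini-Hochberg), 0 genes had an interaction at an adjusted p under 0.05, which is 0.0%. The smallest adjusted p was 0.053, for Fut9. At an unadjusted p under 0.05 there were 1756 genes, with 1061 above 0 (7.56%) and 695 below 0 (4.95%), where a threshold of 0.05 alone gives 702 genes. On the recovered reads, edgeR with TMM called 1 gene (Fut9) and edgeR with DESeq2's size factors called 0. DESeq2 called 169 of 14031 genes, 95 above 0 and 74 below 0. At an unadjusted p under 0.05 DESeq2 had 1212 genes above 0 and 620 below 0. The count depended on the tool, and the genes below are given as values with their tests.

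Genotype alone gave few calls at either age. At P20 limma called 3 genes (0.0214%), Atp1b1, Gprasp1 and Pcsk6, and at P60 it called 3 others (0.0214%), Fut9, Grb14 and Sez6l. Without P60 dM1/2 replicate 1, which enters the P20 test only through the shared estimate of spread, the counts were 144 and 9, and without P60 dM1/2 replicate 3 the P60 count was 45. Atp1b1, a subunit of the sodium pump, was higher in dM1/2 at P20 by a log2 value of 1.73. The P20 and P60 differences share no library, and across genes they had a Pearson r of -0.058 and a Spearman rho of -0.125, as a description over 14037 genes that are not independent. Signs were opposite for 54.5% of genes.

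**Figure D1:**
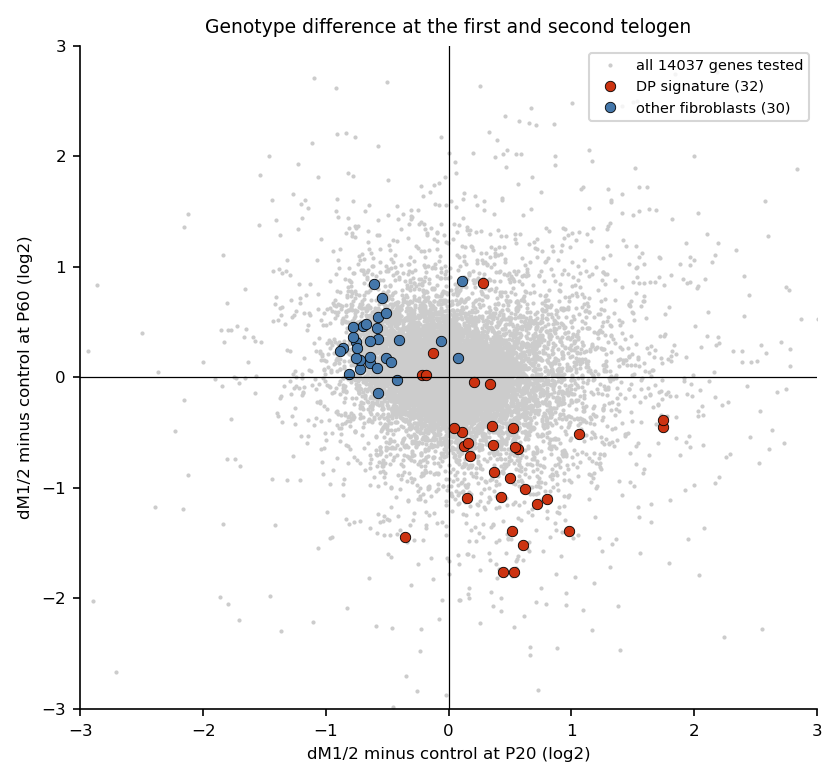
Difference of dM1/2 from control at P20 (x axis, log2) against that at P60 (y axis, log2) for the genes tested, with DP signature genes in red and other fibroblast genes in blue. The 32 DP signature genes lie mostly at lower right and the 30 other fibroblast genes mostly at upper left, and 26 genes lie outside the plotted range.

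Genes were also counted by whether the groups overlapped. In 81 genes (0.577%) every dM1/2 library was above every control at P20 and below every control at P60, and in 110 genes (0.784%) the order was the reverse. The same order held at both ages in 96 genes (0.684%) with dM1/2 above control and in 49 genes (0.349%) with dM1/2 below. Groups of fewer libraries overlap less, and with any 1 library left out the first count was 97 to 195 and the next 127 to 380 (380 without P60 dM1/2 replicate 2). The 4 counts were 137, 179, 343 and 168 without P60 dM1/2 replicate 1.

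DP signature genes had a median interaction of -1.19, beside 0.01 over all genes tested. Their median difference was 0.40 at P20 and -0.62 at P60, and 17 of 32 were below 0 and 1 above 0 at an unadjusted p under 0.05. None passed the adjusted threshold in limma, and DESeq2 called 6, beside 169 of all 14031 genes in its fit. In P20 controls the mean log2 level of the 32 genes was 10.24, 9.93 and 10.30, and in P20 dM1/2 it was 10.82, 10.49 and 10.48. At P60 it was 9.72, 9.86 and 10.17 in controls and 8.84, 9.08 and 9.72 in dM1/2. All dM1/2 libraries lay above all controls at P20, and at P60 replicates 1 and 2 lay below all controls and replicate 3 was level with the lowest control. In sorted bulk RNA, fewer DP cells and less of these transcripts per cell cannot be told apart. Without P60 dM1/2 replicate 1 the median interaction was -0.89, with 28 of 32 below 0.

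**Figure D2:**
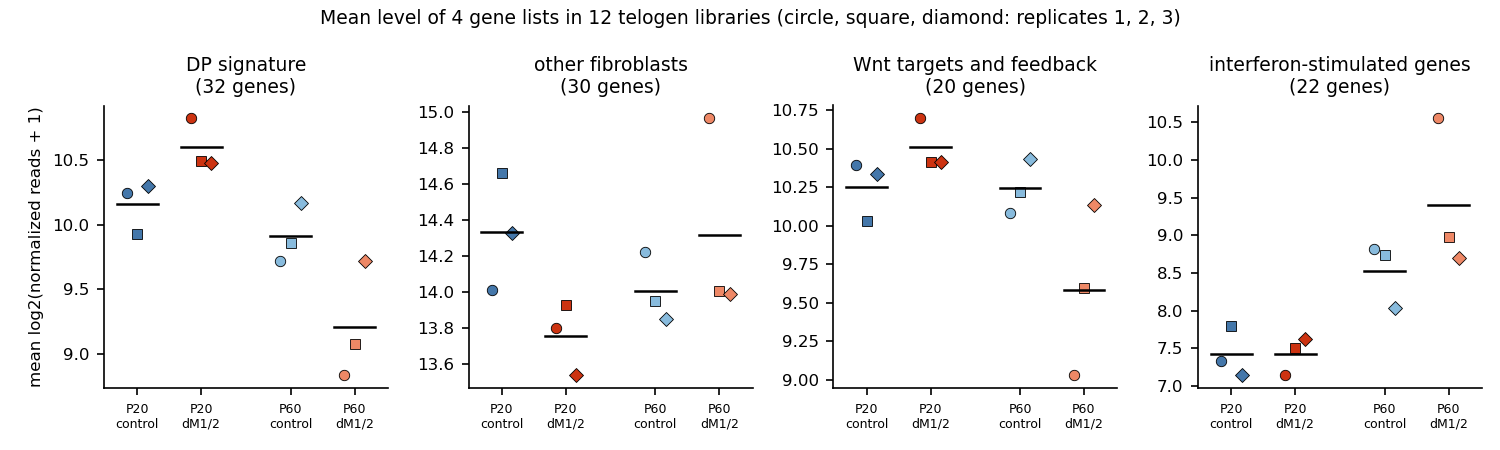
Mean log2(normalized reads + 1) of 4 gene lists in each of the 12 libraries (points, by replicate) with the group mean (line). DP signature genes lie at 10.48 to 10.82 in P20 dM1/2, above all P20 controls, and at 8.84 to 9.72 in P60 dM1/2, and P60 dM1/2 replicate 1 (circle) is the lowest of the 12 libraries for DP signature and Wnt genes and the highest for the other 2 lists.

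Within the DP signature, the 4 largest interactions were those of Crabp1, Lef1, Rspo2 and Sox18. Sox18, a transcription factor of the DP (chromosome 2, 181669836 to 181671640, minus strand, GRCm38), was at 273, 214 and 324 normalized reads in P20 controls and at 923, 874 and 888 in P20 dM1/2. At P60 it was at 145, 62 and 101 in controls and at 83.3, 62.9 and 68.2 in dM1/2. The groups were far apart at P20 and overlapped at P60, and the interaction was -2.19 ± 0.38 (limma, adjusted p = 0.205, and exact permutation p = 0.02). The smallest p that the exact two-sided permutation test can give is 0.005, since genotype labels within each age allow 400 arrangements, and this cannot pass a threshold over 14037 genes. Groups that do not overlap at either age and lie in opposite order always give 0.005, so there the p only restates that order.

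Crabp1 was at 2470, 2150 and 2960 in P20 controls, 7720, 3590 and 4340 in P20 dM1/2, 8260, 8840 and 8840 in P60 controls and 1150, 3490 and 8960 in P60 dM1/2. At P60 replicate 3 of dM1/2 was level with the controls while the other replicates were far below. Lef1, the Wnt-responsive transcription factor, was at 2120, 1580 and 2040 in P20 controls, 3650, 2520 and 2270 in P20 dM1/2, 1310, 2020 and 3010 in P60 controls and 192, 774 and 1370 in P60 dM1/2. Their interactions were -2.37 ± 0.75 and -2.30 ± 0.76 (limma, adjusted p = 0.276 and 0.288).

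Wnt targets and feedback genes, of which 6 are also in the DP signature, had a median interaction of -0.66. Of 20 genes, 8 were below 0 and 2 above 0 at an unadjusted p under 0.05. After adjustment limma called 0 of them and DESeq2 called 2, beside 169 of all 14031 genes in the DESeq2 fit. Notum, a secreted enzyme that removes the lipid of Wnt ligands and so limits the pathway, was at 4580, 2120 and 3660 in P20 controls and 9330, 3840 and 6190 in P20 dM1/2, and at 6710, 8000 and 8670 in P60 controls and 480, 1440 and 4140 in P60 dM1/2. The groups overlapped at P20, and at P60 all dM1/2 libraries were below all controls, for an interaction of -3.33 ± 0.83 (limma, adjusted p = 0.215). Lgr6, a receptor for R-spondins, was at 833 to 2620 in P20 controls, 1530 to 2350 in P20 dM1/2, 1130 to 2070 in P60 controls and 159 to 570 in P60 dM1/2 (interaction -2.54 ± 0.66). Rspo2, an R-spondin that enhances Wnt signaling, was at 177, 127 and 212, then 391, 164 and 187 at P20, and at 254, 222 and 242, then 83.3, 57.8 and 70.6 at P60, controls before dM1/2. Its interaction was -2.20 ± 0.43 (limma, adjusted p = 0.215), and the groups overlapped at P20 and not at P60. Without P60 dM1/2 replicate 1 the list's median was -0.26.

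BMP and TGF-beta genes did not share a direction, with 4 below 0 and 3 above 0 at an unadjusted p under 0.05 among 21 genes and a median of -0.24. It was -0.03 without P60 dM1/2 replicate 1, -0.02 without P60 control replicate 3, -0.07 without P20 control replicate 2 and -0.42 without P20 control replicate 1. DESeq2 called 4 of the 21 genes, beside 169 of all 14031 genes in its fit, and limma called 0. Bmp4, Inhba, Bmp6 and Nog of this list are also in the DP signature. Bmp4, a ligand that the DP sends to the epithelium, was at 6100, 4670 and 6240 in P20 controls and 7500, 7480 and 9240 in P20 dM1/2. At P60 it was at 3580, 4500 and 4890 in controls and 896, 1880 and 2570 in dM1/2, so that the groups did not overlap at either age and lay in opposite order (interaction -1.91 ± 0.42, exact permutation p = 0.005, fixed by this order). Bmp7, another BMP ligand, showed the same order, at 5870, 3220 and 4850 and then 9840, 6990 and 6870 at P20, and at 2790, 2940 and 4480 and then 1270, 1520 and 2260 at P60, controls before dM1/2 (interaction -1.81 ± 0.38). Bambi, a decoy receptor of the pathway, was lower in every P60 dM1/2 library than in every P60 control (interaction -1.25 ± 0.30). Inhba, the beta subunit of activin, had an interaction of -2.12 ± 0.68 with overlapping groups at both ages.

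Gli1, the transcription factor and classic target of Hedgehog signaling, was at 1290, 1020 and 1390 in P20 controls and 2080, 2010 and 2030 in P20 dM1/2. At P60 it was at 1030, 1050 and 1120 in controls and 348, 679 and 706 in dM1/2. The order was reversed between the ages without overlap (interaction -1.68 ± 0.32, limma adjusted p = 0.215, exact permutation p = 0.005, fixed by this order). Fgf10, a growth factor of the DP, was at 1920, 1640 and 2530 and then 2940, 3240 and 2680 at P20, and at 2040, 1580 and 2200 and then 1440, 918 and 1400 at P60, controls before dM1/2 (interaction -1.21 ± 0.29). Fgfr3 had an interaction of -1.74 ± 0.76. FGF genes as a list had a median of -0.27 over 17 genes, with 2 below 0 and 1 above 0 at an unadjusted p under 0.05.

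Fut9, a fucosyltransferase, had the lowest p of all genes and lies on chromosome 4 from 25609332 to 25800244 (minus strand, GRCm38). It was at 206, 54.1 and 143 in P20 controls and 236, 201 and 253 in P20 dM1/2, and at 225, 276 and 293 in P60 controls and 15.1, 17.6 and 32.9 in P60 dM1/2. The groups overlapped at P20 and were far apart without overlap at P60, for an interaction of -4.57 ± 0.59 (limma, adjusted p = 0.053). Grb14, an adaptor of insulin receptor signaling, was at 241, 262 and 267 and then 300, 272 and 294 at P20, and at 139, 219 and 293 and then 50.5, 45.3 and 70.6 at P60, controls before dM1/2. Its groups did not overlap at either age, and it passed at P60 (limma, adjusted p = 0.0251) and its interaction was -2.08 ± 0.36 (adjusted p = 0.205).

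Of the other genes named for low values of p, Zcchc18 had an interaction of -3.45 ± 0.54, Plekhh2 of -1.91 ± 0.36, Stc2 of -1.92 ± 0.39 and Dio3 of -2.92 ± 0.58. Dio3, the deiodinase that inactivates thyroid hormone, was at 40.6 to 61.6 in P20 controls, 54.6 to 161 in P20 dM1/2, 42.9 to 62.3 in P60 controls and 9.41 to 17.7 in P60 dM1/2. Gprasp1, a sorting protein for G protein-coupled receptors, was at 461, 376 and 473 in P20 controls and 985, 969 and 943 in P20 dM1/2, and its groups overlapped at P60, at 650 to 768 and 651 to 835. It passed at P20 (limma, log2 1.15, adjusted p = 0.0166) but not for the interaction (-1.08 ± 0.19, adjusted p = 0.205).

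Genes of other fibroblasts had a median interaction of 0.92, with a median difference of -0.63 at P20 and 0.29 at P60. All 30 were above 0, and 10 were above 0 at an unadjusted p under 0.05, with none past the adjusted threshold in limma. With DESeq2, 21 were above 0 at an unadjusted p under 0.05 and 5 were called. Over all 14031 genes of that fit, 1212 were above 0 at this threshold and 169 were called. The mean log2 level was 14.01, 14.66 and 14.33 in P20 controls, 13.80, 13.93 and 13.54 in P20 dM1/2, 14.23, 13.95 and 13.85 in P60 controls and 14.97, 14.01 and 13.99 in P60 dM1/2. At P20 the dM1/2 libraries lay below all controls, and at P60 only replicate 1 of dM1/2 lay above all controls. Without it the median difference at P60 was 0.00 and the median interaction 0.60, with 28 of 30 above 0.

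Thy1, a cell surface glycoprotein of fibroblasts (chromosome 9, 44043384 to 44048579, plus strand, GRCm38), was at 7880, 14400 and 12000 in P20 controls and 6450, 6680 and 6240 in P20 dM1/2, and at 5990, 6410 and 5360 in P60 controls and 9780, 6470 and 8430 in P60 dM1/2. The groups crossed without overlap, although P60 dM1/2 replicate 2 was just above the highest control (interaction 1.24 ± 0.29, exact permutation p = 0.005, fixed by this crossing). Fbn1, the fibrillin of microfibrils, was at 89700 to 133000 in P20 controls, 43200 to 86300 in P20 dM1/2, 27800 to 61800 in P60 controls and 54400 to 139000 in P60 dM1/2 (interaction 1.45 ± 0.58). Postn and Col14a1, matrix proteins of the dermis, had interactions of 1.26 ± 0.73 and 1.16 ± 0.80, and their groups overlapped at both ages. At P60 only dM1/2 replicate 1 was above all controls. Postn was at 53400, 11800 and 12200 in P60 dM1/2, beside 9260 to 15900 in P60 controls. Col14a1 was at 37900, 13500 and 6570, beside 6460 to 18600.

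Col1a1, Col1a2 and Col3a1, the chains of collagens I and III, together held 37.6% to 42.1% of reads in P20 controls, 26.0% to 31.3% in P20 dM1/2, 11.2% to 12.6% in P60 controls and 11.6% to 15.0% in P60 dM1/2. The genotypes did not overlap at P20 and overlapped at P60, and every P20 library was above every P60 library. Over 42 collagen chains the median interaction was 0.78, and 14 chains were above 0 and 1 below 0 at an unadjusted p under 0.05. The largest values above 0 were those of Col2a1 at 2.88 ± 1.01, Col28a1 at 2.77 ± 0.98, Col4a3 at 2.28 ± 0.81 and Col5a3 at 2.07 ± 0.86. Col5a3 was at 22000 in P60 dM1/2 replicate 1 and at 3400 and 5260 in the other replicates, beside 1410 to 4950 in P60 controls. Without that library the median of the list was 0.46.

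Among genes named for their low p with an interaction above 0, Pdpn was at 1770, 2290 and 2000 in P20 controls and 1170, 1380 and 962 in P20 dM1/2, and at 1600, 1530 and 1410 in P60 controls and 2710, 1640 and 2020 in P60 dM1/2 (interaction 1.26 ± 0.26, limma adjusted p = 0.215). Adamts14, a procollagen protease, was at 852, 1060 and 895 and then 748, 642 and 527 at P20, and at 655, 610 and 350 and then 1000, 973 and 906 at P60, controls before dM1/2 (interaction 1.44 ± 0.30). Itga5, the fibronectin receptor subunit, was at 2660 to 3060, then 2250 to 2620 at P20, and at 1640 to 2020, then 2710 to 2910 at P60, controls before dM1/2 (interaction 0.81 ± 0.17). Tlcd2, a membrane lipid protein, was at 455, 576 and 513 and then 337, 345 and 337 at P20, and at 288, 300 and 337 and then 472, 450 and 398 at P60, with little spread within each dM1/2 group (interaction 1.11 ± 0.20). Qpct, Ppic, Sgms2, C1qtnf6 and Ism1 had interactions of 1.19, 0.91, 1.14, 1.23 and 0.94, and the groups of C1qtnf6 and Ism1 overlapped at P60.

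Pcsk6, a proprotein convertase that activates secreted precursors (chromosome 7, 65861734 to 66050386, plus strand, GRCm38), was at 1600, 3030 and 1250 in P20 controls and 173, 332 and 233 in P20 dM1/2, and at 3410, 2660 and 1570 in P60 controls and 3890, 2190 and 2730 in P60 dM1/2. It passed at P20 (limma, log2 -2.94, adjusted p = 0.0166) and overlapped at P60, and the interaction was 3.17 ± 0.51 (adjusted p = 0.174).

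**Figure D3:**
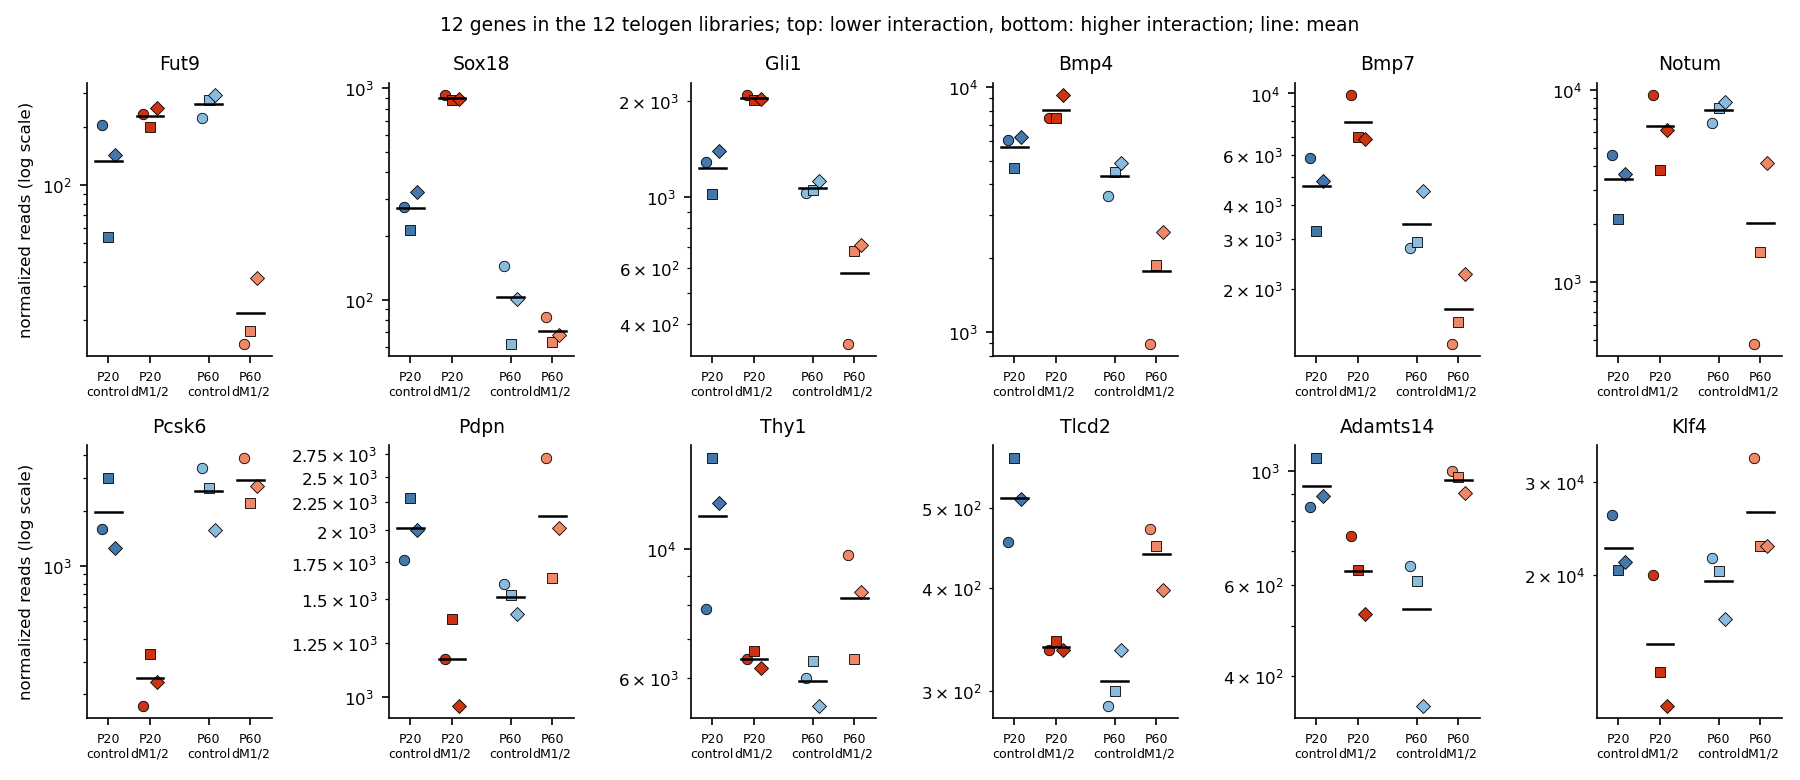
Normalized reads (log scale) of 12 genes in the 12 libraries, circle, square and diamond for replicates 1, 2 and 3, with the group mean as a line. Fut9 lies between 15.1 and 32.9 in P60 dM1/2, below all other libraries, and Pcsk6 lies between 173 and 332 in P20 dM1/2, below all other libraries.

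Immediate early genes, which respond to stimulation within minutes, had a median interaction of 0.21, with 5 of 24 above 0 and 0 below 0 at an unadjusted p under 0.05. Klf4, a zinc finger factor, was at 25900, 20400 and 21100 in P20 controls and 20000, 13100 and 11300 in P20 dM1/2, and at 21500, 20300 and 16500 in P60 controls and 33300, 22700 and 22700 in P60 dM1/2 (interaction 1.06 ± 0.33, exact permutation p = 0.005). Its groups crossed without overlap, which fixes this p. Myc had an interaction of 1.29 ± 0.37.

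Cell cycle genes had a median interaction of 0.62 over 29 genes, with 3 above 0 and 1 below 0 at an unadjusted p under 0.05. Their mean log2 level was 6.11, 8.30 and 7.76 in P20 controls and 6.23, 7.40 and 7.79 in P20 dM1/2, so replicate 1 of each genotype was low at P20. At P60 it was 5.54, 5.71 and 5.50 in controls and 6.36, 5.97 and 6.03 in dM1/2, with all dM1/2 above all controls. The median interaction was 1.23 without P20 control replicate 1, 0.41 without P20 control replicate 2 and 0.25 without P20 dM1/2 replicate 1, when 12 of 29 genes were below 0. Cdk1, the kinase that starts mitosis, was at 4.2, 2.38 and 0 in P60 controls and 25.2, 20.1 and 18.8 in P60 dM1/2, and at 24.1, 165 and 100 and then 9.1, 57.5 and 98 at P20, controls before dM1/2 (interaction 4.05 ± 1.28, limma adjusted p = 0.273). Its values in P60 controls rest on very few reads, so the size of this interaction is uncertain. With at least 10 normalized reads required in every library, which leaves out Cdk1, 18 cell cycle genes were tested. Their median interaction was 0.46, with 13 above 0 and 5 below 0.

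Interferon-stimulated genes had a median interaction of 0.81, and 22 of 22 were above 0. At an unadjusted p under 0.05, 1 was above 0 and 0 below 0. The mean log2 level was 8.81, 8.73 and 8.03 in P60 controls and 10.55, 8.98 and 8.69 in P60 dM1/2, and between 7.14 and 7.79 at P20. Without P60 dM1/2 replicate 1 the median was 0.29 with 18 of 22 above 0. The immune marker list moved with it: 10 of 16 markers were tested, their mean log2 level was 7.09 in this library against 4.54 to 5.95 in the other 11, and their summed level was 762 to 2030 in P60 dM1/2 against 657 to 753 in P60 controls. None of these markers was at 0 in all libraries. The part of immune cells in these values was not tested.

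The labelled cell type was checked against its markers. All 32 DP signature genes were tested, and their summed level was 150000 to 189000 normalized reads in P20 controls, 198000 to 244000 in P20 dM1/2, 102000 to 194000 in P60 controls and 65500 to 124000 in P60 dM1/2. Sums of other fibroblast genes were 12400000 to 16100000, 6540000 to 8780000, 3040000 to 3560000 and 3600000 to 4280000 in the same order. Of 19 keratinocyte markers 10 were tested, with sums of 885 to 1260, 789 to 1470, 1040 to 1450 and 924 to 1930, and Krt27 and Krt71 were at 0 reads in all 12 libraries. Adipocyte markers, with 8 of 10 tested, had a median interaction of 0.77 and sums of 3790 to 10900, 2370 to 5760, 2480 to 4990 and 3620 to 15800, which overlapped at both ages. The median was 0.38 without P60 dM1/2 replicate 1, 0.29 without P60 control replicate 2 and 1.41 without P60 dM1/2 replicate 3. Keratinocyte markers had a median interaction of 0.01 in limma, -0.69 with edgeR and TMM and -0.67 with DESeq2. For endothelial cells it was -0.17, and -0.51 without P60 dM1/2 replicate 1. Dermal sheath and smooth muscle markers had a median of -0.33, and 0.00 without that library. Their sums were 17000 to 22600, 13600 to 20500, 18800 to 20300 and 9180 to 18400, in the same group order. Pericyte markers, with 7 of 7 tested, had sums of 17300 to 20900, 17200 to 22300, 22200 to 24400 and 20700 to 26200. For melanocytes, with 7 of 11 tested, sums were 1750 to 2440, 2040 to 2340, 3770 to 6590 and 5900 to 6030. Schwann cell sums were 927 to 2120 and skeletal muscle sums 92 to 221 over the 12 libraries. The part of these cells in the interaction was not tested.

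The other lists included the 11 histone deacetylases, with a median of -0.20, direct p53 targets (0.14 over 21), apoptosis genes (0.12 over 20) and clustered protocadherins (-0.01 over 43). Imprinted genes had a median of 0.58 over 17, and cytosolic ribosomal protein genes of 0.17 over 81 with 75 above 0. They were 0.24 and 0.03 without P60 dM1/2 replicate 1.

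**Figure D4:**
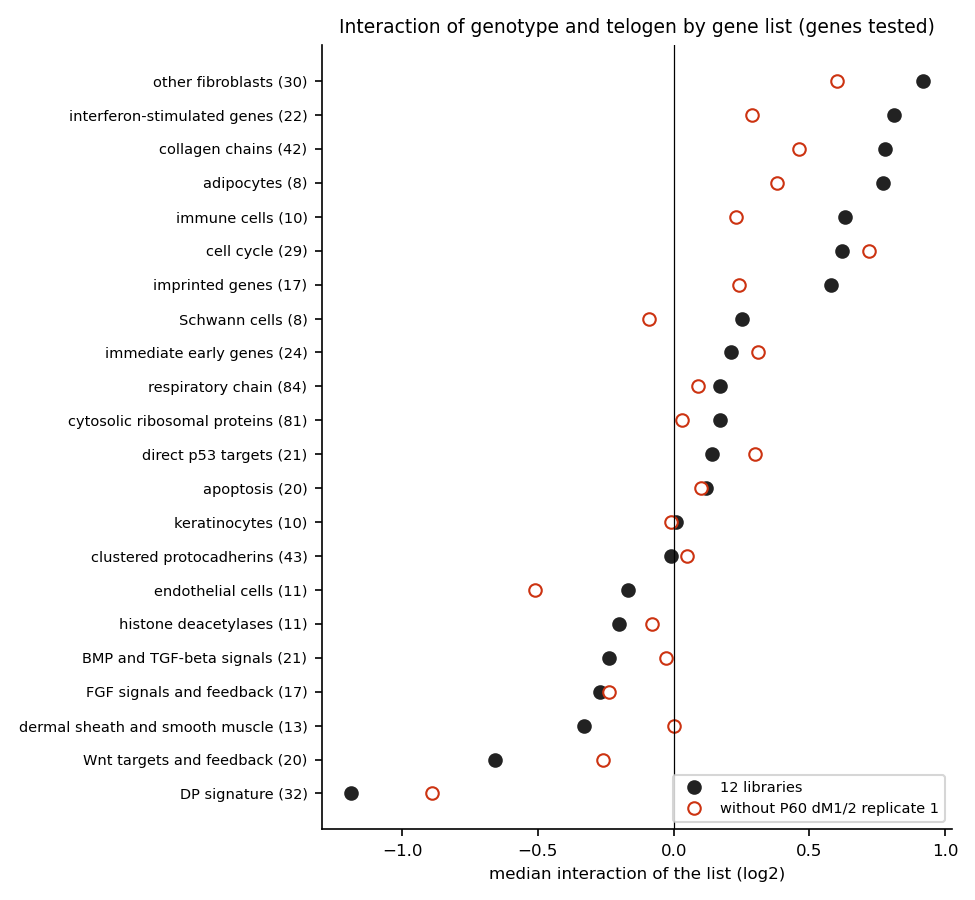
Median interaction (x axis, log2) of 22 gene lists over 12 libraries (filled) and without P60 dM1/2 replicate 1 (open), with the number of genes tested. DP signature genes lie at -1.19 and -0.89, and other fibroblasts move from 0.92 to 0.60.

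Nnat, Ly75, Trnp1, Fam180a, Pcdhgb8 and Pcsk6 were chosen with their P20 values known, and of these limma called Pcsk6 alone at P20. Nnat, an imprinted proteolipid gene, was at 77.7, 78.5 and 91.8 and then 1370, 367 and 351 at P20, and at 73.5, 62 and 115 and then 55.5, 204 and 254 at P60, controls before dM1/2 (interaction -1.94 ± 0.80). Ly75 was above every control at P20, at 84.1 to 164 against 14.3 to 29.5, and overlapped at P60. Trnp1 was above every control at both ages, at 117 to 203 against 27.1 to 56.2 and at 83 to 114 against 54.8 to 57.6. Fam180a was below every control at P20, at 382 to 542 against 890 to 1200, and overlapped at P60. Pcdhgb8 was below every control at P20, at 97.4 to 141 against 228 to 333, and overlapped at P60.

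The same interaction can be read as a difference of age changes, which share libraries with it. Between P20 and P60, limma called 1464 genes in controls (10.4%), 676 higher (4.82%) and 788 lower (5.61%) at P60. In dM1/2 it called 1947 genes (13.9%), 1192 higher (8.49%) and 755 lower (5.38%). Both lists held 572 genes, 39.1% of the control list and 29.4% of the dM1/2 list, and 571 of them changed in the same direction. With any 1 library left out the counts were 519 to 2440 in controls (519 without P20 control replicate 2, 2440 without P60 dM1/2 replicate 1) and 948 to 2454 in dM1/2 (948 without P20 dM1/2 replicate 3).

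Among DP signature genes, 21 of 32 fell with age in dM1/2 and none rose, while in controls 3 fell and none rose. Sox18 fell in both genotypes. Bmp4, Lef1, Rspo2 and Inhba fell in dM1/2, where their control values did not pass. Among genes of other fibroblasts, 11 of 30 rose and none fell in dM1/2, and in controls 2 rose and 5 fell. For interferon-stimulated genes, 20 of 22 rose in dM1/2 and 5 in controls. The difference of these age changes between genotypes is the interaction itself, for which limma called 0 genes and DESeq2 called 169. Without P60 dM1/2 replicate 1, 22 of 32 DP signature genes were lower and 0 higher in dM1/2, and 5 were lower and 2 higher in controls. Of 30 other fibroblast genes, 9 were then higher and 1 lower in dM1/2, and 5 were higher and 9 lower in controls. Of 22 interferon-stimulated genes, 15 were then higher in dM1/2 and 12 in controls. Over all 14004 genes of that setting, 971 were higher and 607 lower in dM1/2, and 1205 were higher and 1235 lower in controls. The count of DP signature genes lower in dM1/2 was 14 without P20 dM1/2 replicate 1, and that of interferon-stimulated genes higher in dM1/2 was 13 without P20 dM1/2 replicate 1 or 3.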

How the data were processed

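Dermal papilla cells were sorted from mouse skin and RNA was sequenced, and the 12 libraries of P20 and P60 were grouped by the labelled age and genotype. Per the methods and labels, rRNA-depleted, directional libraries were read from a single end, and the authors used Trimmomatic, TopHat2 (mm10), HTSeq and DESeq2 to trim, align, count and scale. The deposited signal holds gene counts after DESeq2 scaling over all 24 libraries. Undoing the scaling returned whole reads for 100.0% of values (within 0.1). The fold change and p-value columns of the authors were not used. Strand setting of the counting is not given in the sources used here. Of 25755 genes, 25431 were matched to GENCODE vM21 (GRCm38), and the filter kept genes whose 12-library mean reached 10 normalized reads.

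limma 3.58.1 with a trend was fitted to log2(normalized reads + 1) with 1 coefficient per group. Tests were two-sided, adjusted by Benjamini-Hochberg and called at 0.05. edgeR 4.0.16 and DESeq2 1.42.0 on recovered reads were alternatives. For named genes, genotype labels were permuted within each age in an exact two-sided test. The alternatives were another pseudocount, other filters, thresholds of 0.01 and of 1 on the log2 scale, a replicate block, log2-CPM with TMM, a fit over 24 libraries, array weights and each library left out. List medians and crossing counts under these settings were added after seeing the data. Code was tested on simulated data. Depth limits precision, and 0 reads allow up to 3 reads, for counting error only.

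Genes were named as the 10 lowest p in each direction (since none passed; predicted models, pseudogenes and ribosomal RNA left out), the 5 largest crossings in each direction, up to 4 members of each list by absolute interaction, and Hdac1, Hdac2, Pcsk6, Nnat, Ly75, Trnp1, Pcdhgb8 and Fam180a. The libraries, gene lists and names were chosen with earlier results of these data known.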

Additional observations from a re-analysis of the deposited data

Results flagged for a closer look

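Of 133 genes named, 27 had groups that did not overlap at either age and differed in opposite directions at P20 and P60, 12 with an interaction below 0 and 15 above 0. Over all genes tested, 0.577% crossed from above to below control and 0.784% the other way. The 27 are not a sample of all genes, since 5 in each direction were named because they crossed and others for a low p or a large interaction within a list. The interaction was tested in limma and none passed after adjustment. Below 0 were Aqp3 (-6.42), Lipo2 (-4.83), Srcin1 (-3.86), Spef2 (-3.55), Catip (-3.48), Zcchc18 (-3.45), Grb14 (-2.08), Bmp4 (-1.91), Plekhh2 (-1.91), Bmp7 (-1.81), Gli1 (-1.68) and Fgf10 (-1.21). Above 0 were Il1rl1 (3.16), Trpm6 (2.83), Ereg (2.57), Egr4 (2.11), Gstp2 (1.82), Adamts14 (1.44), Csf1r (1.42), Pdpn (1.26), Thy1 (1.24), Qpct (1.19), Sgms2 (1.14), Tlcd2 (1.11), Klf4 (1.06), Ppic (0.91) and Itga5 (0.81).

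Some of the largest values rest on few reads. Aqp3, a water and glycerol channel, was at 13.4, 0 and 2.87 in P20 controls, 40.9, 22.1 and 35.1 in P20 dM1/2, 56.7, 71.5 and 134 in P60 controls and 0, 27.7 and 18.8 in P60 dM1/2. Srcin1, an adaptor of Src signaling, was better covered, at 182, 243 and 267 and then 673, 648 and 499 at P20, and at 909, 674 and 1160 and then 42.9, 322 and 299 at P60, controls before dM1/2.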

How the results depend on the processing

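The count of genes with an interaction (0) was 1 with a pseudocount of 10, 2 without a filter, 53 with the replicate block, 1 with edgeR and TMM, 169 with DESeq2, 1 with log2-CPM, 9 in the fit over 24 libraries and 15 with array weights. It ranged from 0 to 21 as libraries were left out, with 21 without P60 dM1/2 replicate 3 and 4 without P60 dM1/2 replicate 1. The P20 count (3) was 5, 6, 6, 264, 6, 27 and 3687 with a pseudocount of 10, edgeR with TMM, edgeR with DESeq2's size factors, DESeq2, log2-CPM, 24 libraries and array weights, 0 at 0.01, and 0 to 144 with a library left out (144 without P60 dM1/2 replicate 1, 16 without P20 control replicate 1, 0 or 1 without any other P20 library). The P60 count (3) was 52, 59, 17 and 0 with the replicate block, DESeq2, 24 libraries and 0.01, and 0 to 45 with a library left out (45 without P60 dM1/2 replicate 3, 9 without replicate 1). The age change in controls (1464) was 5241 with array weights, 404 at 0.01, 700 with the fold threshold and 519 to 2440 with a library left out. In dM1/2 (1947) it was 685 at 0.01, 1088 with the fold threshold and 948 to 2454 with a library left out. The lowest counts came without P20 control replicate 2 and P20 dM1/2 replicate 3, and the highest without P60 dM1/2 replicates 1 and 3, in that order. Controls also moved to 546, 655, 720 and 777 without P20 control replicate 3 and P60 control replicates 2, 1 and 3, and dM1/2 to 1114 and 1117 without P20 dM1/2 replicates 1 and 2. The P60 count was 0 without P60 control replicate 2 or 3 or P60 dM1/2 replicate 2. Fewer samples enter each of these fits, and otherwise the cause was not tested. With single libraries left out, 5 named interactions changed sign: Actg2 (-1.12 to 0.09) and Cnp (-0.02 to 0.77) without P60 dM1/2 replicate 1, H2-Eb1 (-0.33 to 2.11) at -0.33, -0.31 and -0.24 without P20 control replicate 3, P20 dM1/2 replicate 2 and P60 control replicate 3, Kdm5d (-0.49 to 0.23) without P20 control replicate 2 and at 0.07 with array weights, and Hdac2 (0 to 0.17) at 0 without P60 control replicate 3. Same-numbered libraries correlated at 0.2, 0.059 and 0.125 at P20 and 0.333, 0.027 and 0.165 at P60, and pairs of unlike number at -0.349 to 0.206. These values do not settle whether the numbers pair the libraries. The labels state no pairing, so the replicate block rests on an assumed one. Not every library correlated best with its own number. The replicate block called 7 of the 32 DP signature genes, and age changes cannot be estimated in it and were not tested there. Over all results and alternatives, 3259 values were counted as unchanged and 79 newly passed. For single interactions, unchanged means the same direction and still not passing. For counts of genes it means a count close to the main one.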
